A study of Oryctolagus cuniculus with 18 samples.

Results

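The RPE-choroid of rabbit eyes filled with poly(CEP) at vitrectomy and collected 1 month later was compared with the RPE-choroid of non-operated eyes, with 3 samples in each group, 6 of the 18 samples in the series. Samples were taken by their labelled tissue, treatment and time. The animals were male New Zealand White rabbits with a labelled age of 4 to 6 months. Poly(CEP) is a thermogelling copolymer of polyethylene glycol, polypropylene glycol and polycaprolactone that stands in for the vitreous, and the filled eyes had no induction of proliferative vitreoretinopathy, the scarring disease the study modelled. Vitrectomised eyes left without the polymer were not analysed here, so surgery and polymer cannot be told apart. The labels call the tissue retinal pigment epithelium, while the study peeled RPE and choroid together from the sclera after pulling out the retina. The file holds 29587 rabbit Ensembl genes, of which 16322 had enough counts in RPE-choroid to be tested. The genes carry identifiers only, and 0 of them could be paired with a gene name here, so RPE, photoreceptor and choroid markers could not be read and genes are described by the tissue that expressed them more.

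The RPE is a single pigmented cell layer that supports the photoreceptors. It recycles visual pigment, engulfs shed outer segments, and forms the outer blood-retinal barrier. The choroid behind it is a vascular and connective tissue bed with pigment cells and resident immune cells. The outer segments of the photoreceptors interlock with the RPE, and retina can remain attached when the 2 layers are separated. In a bulk sample, a smaller number of cells of a type and less RNA per cell cannot be told apart.

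The RPE-choroid samples held very different levels of retina transcripts, and 2 of the non-operated samples stood apart in opposite directions. The 2-month samples, also from operated eyes, are outside the comparison. In them, the 200 genes whose level in retina most exceeded that in RPE-choroid were taken as retina-high genes. Their median level, as a percentage of the level in non-operated retina, was 21.0%, 0.492% and 57.3% in non-operated replicates 1, 2 and 3. It was 58.4%, 69.6% and 35.5% in 1-month replicates 1, 2 and 3. Non-operated replicate 2, whose file column was matched to the sample by its title since the description carries a longer name, was nearly free of retina transcripts, whereas non-operated replicate 3 lay within the range of the 1-month samples. On the log2 scale of CPM (counts scaled to library size), the mean level of these genes was 6.43 ± 0.50 at 1 month and 4.04 ± 3.54 in non-operated samples (SD, n = 3 each, exact permutation p = 0.3, two-sided, 0.3 after adjustment over 2 scores). The 200 RPE-choroid-high genes, chosen in the same way, had a mean of 5.70 ± 0.50 at 1 month and 6.99 ± 0.77 in non-operated samples (SD, n = 3 each, exact permutation p = 0.2, two-sided, 0.3 after adjustment). The smallest p that 3 samples against 3 can give is 0.1, and the groups overlapped in both scores. The difference in the retina-high score, 2.38, was 0.38 without non-operated replicate 2 and 3.72 without non-operated replicate 3.

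**Figure D1:**
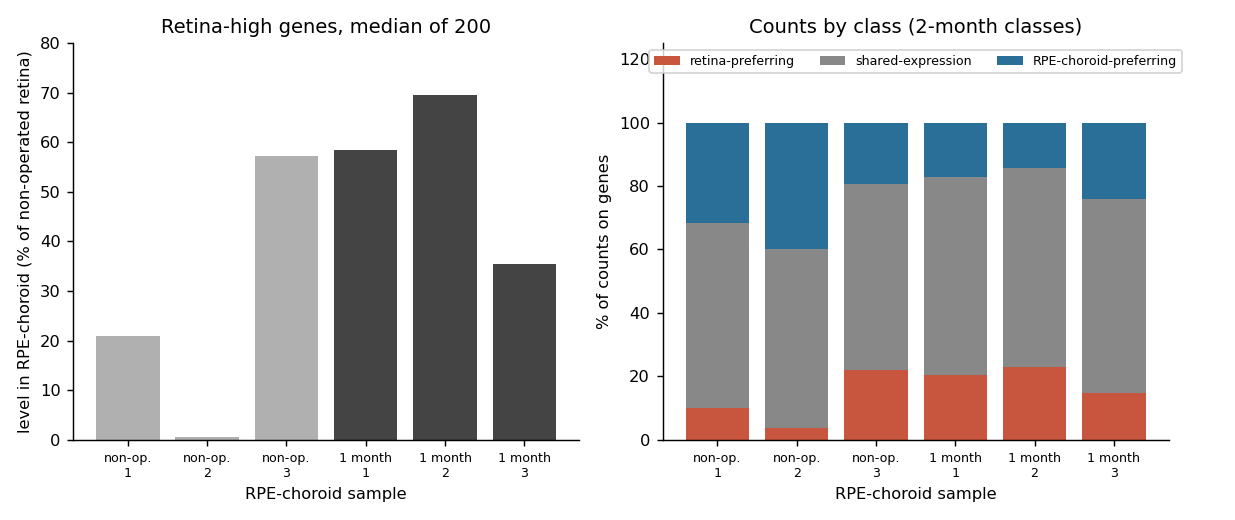
Left, the median level of 200 retina-high genes in each RPE-choroid sample, as a percentage of their level in non-operated retina. Right, the percentage of the counts on genes taken by retina-preferring, shared-expression and RPE-choroid-preferring genes, by classes set in the 2-month samples. Non-operated replicate 2 stood at 0.492% and non-operated replicate 3 at 57.3%, beside 35.5% to 69.6% at 1 month.

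The same split was seen in how the counts were divided between tissue classes. Genes at least 2-fold higher in one tissue than in the other in the 2-month samples were called retina-preferring or RPE-choroid-preferring, and the rest shared-expression. RPE-choroid-preferring genes took 31.8%, 39.7% and 19.3% of the counts in non-operated replicates 1 to 3, and 17.1%, 14.2% and 24.0% at 1 month. Retina-preferring genes took 9.88%, 3.72% and 21.9% in non-operated samples, and 20.5%, 22.9% and 14.7% at 1 month. In both classes the values of non-operated replicate 3 fell between those of the 1-month samples. Shared-expression genes took 56.5% to 58.8% of the counts in non-operated samples and 61.3% to 62.9% at 1 month, with no overlap between the groups.

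Gene by gene, the comparison gave few calls in the fit of all 9 RPE-choroid samples. With edgeR's quasi-likelihood test and Benjamini-Hochberg adjustment, 2 of 16322 genes rose at 1 month (0.0123%) and 0 fell (0%) at an adjusted p under 0.05. Without adjustment, 1277 genes were higher (7.82%) and 2173 lower (13.3%) at p under 0.05, a split that upper-quartile normalisation moved to 1649 and 1759. DESeq2, the tool of the study, called 547 genes higher (2.36%) and 956 lower (4.13%) out of 23135 with any count. By size, 1441 genes were up by more than 2-fold (8.83%) and 1497 were down by more than 2-fold (9.17%), and the median over all genes was -0.01 on the log2 scale. The number of calls depended on the fit, with 526 higher and 947 lower when all 18 samples were fitted together. With only the 6 samples compared, the calls were 0 and 0 (1080 and 1701 at an unadjusted p under 0.05). The number also depended on single samples. Without non-operated replicate 3, whose retina level was 57.3%, 674 genes were called higher (4.05%) and 1480 lower (8.9%), whereas leaving out any other single sample of the 6 gave 0 calls in either direction by edgeR, with 743 to 1081 genes higher and 1198 to 2298 lower at an unadjusted p under 0.05.

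The change followed the baseline tissue preference. By the non-operated samples of both tissues, 2624 tested genes were retina-preferring, 10127 shared-expression and 3571 RPE-choroid-preferring, with a limit of 2-fold. Of the retina-preferring genes, 89.2% had a higher level at 1 month, with a median log2 fold change of 0.82 (quartiles 0.36 and 1.24). Of the RPE-choroid-preferring genes, 11.3% had a higher level, and their median was -0.75 (quartiles -1.25 and -0.35). Shared-expression genes were divided almost evenly, with 52.3% higher and a median of 0.02 (quartiles -0.22 and 0.26). Over all tested genes 49.3% were higher. More than 2-fold higher were 38.9% of the retina-preferring genes, and more than 2-fold lower were 35.9% of the RPE-choroid-preferring genes, beside 8.83% and 9.17% of all genes. These shares are descriptions, because the classes use the same non-operated RPE-choroid samples as the comparison.

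Calls without adjustment were spread in the same way. Among RPE-choroid-preferring genes, 1348 (37.7%) were lower and 45 (1.26%) higher at an unadjusted p under 0.05, beside 13.3% and 7.82% of all genes. Among retina-preferring genes, 294 (11.2%) were higher and 8 (0.305%) lower. Shared-expression genes had 938 higher (9.26%) and 817 lower (8.07%), and upper-quartile normalisation, which moved the median of this class from 0.02 to 0.09, gave 1266 and 532. DESeq2 called 725 of 3914 RPE-choroid-preferring genes lower (18.5%) and 31 higher (0.792%), beside 4.13% and 2.36% of all its genes. It called 121 of 3096 retina-preferring genes higher (3.91%) and 3 lower (0.0969%). Of 16125 shared-expression genes it called 395 higher (2.45%) and 228 lower (1.41%). The DESeq2 totals had no low-count filter. Genes with few counts therefore lower these shares, most of all for shared-expression genes, of which 10127 passed the edgeR filter. The DESeq2 shares of the classes are thus not comparable with each other or with that of all genes.

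Classes set in the 2-month samples, which share no sample with the comparison, gave nearly the same description. Those samples are also from operated eyes, so a change that lasts to 2 months can move a gene between classes. Of the 2-month retina-preferring genes, 20.3% were shared-expression at baseline. At an unadjusted p under 0.05, 443 retina-preferring genes were higher by the 2-month classes and 294 by the baseline classes. There, 90.0% of 2899 retina-preferring genes were higher with a median log2 fold change of 0.82. Of 3468 RPE-choroid-preferring genes, 9.14% were higher, with a median of -0.77, and of 9955 shared-expression genes 51.4% were higher, with a median of 0.01. Of the baseline classes, 87.6% of the retina-preferring, 89.6% of the shared-expression and 84.2% of the RPE-choroid-preferring genes were in the same class at 2 months, which was 79.3%, 91.2% and 86.6% of the 2-month classes. With a 4-fold limit at baseline, the median was 1.04 in 1100 retina-preferring genes and -0.97 in 2202 RPE-choroid-preferring genes.

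**Figure D2:**
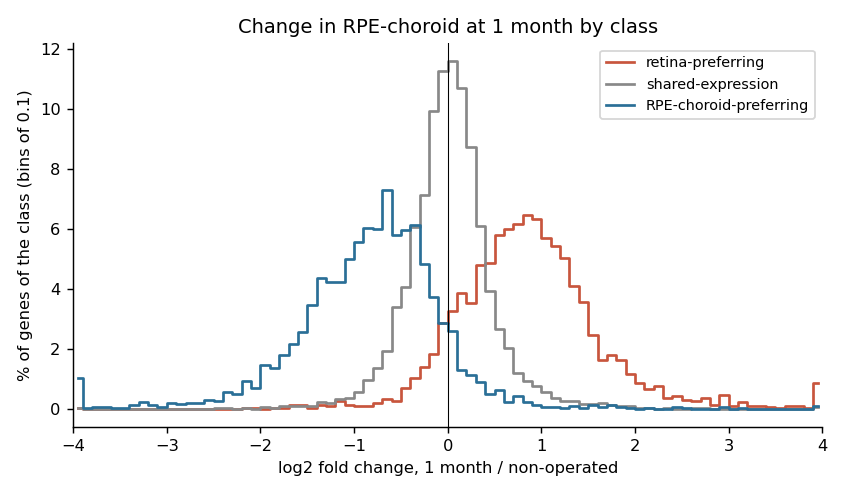
Distribution of the log2 fold change at 1 month against non-operated RPE-choroid (x axis), as the percentage of each class in bins of 0.1 (y axis), with classes set in the 2-month samples and values past the ends of the axis put in the outermost bins. The medians lie at 0.82 for retina-preferring, 0.01 for shared-expression and -0.77 for RPE-choroid-preferring genes.

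The change was graded along the preference. The 1208 genes with a 2-month preference for retina of between 2 and 4 log2 units had a median log2 change of 1.05, and the 1829 with a preference of between 0.5 and 1 had one of 0.28. On the side of RPE-choroid, the median was -0.26 for a preference of 0.5 to 1 (1579 genes), -0.90 for 2 to 4 (1231 genes) and -1.31 for more than 6 (228 genes). In the last group 1.75% of genes were higher at 1 month. Towards retina the medians levelled off with all samples, with 0.99 in the 182 genes with a preference of between 4 and 6. The size of the gradient depended on the 2 non-operated samples that stood apart. Without replicate 2 the median was 0.57 for a retina preference of 2 to 4 and -0.91 for an RPE-choroid preference of more than 6, and without replicate 3 it was 2.02 and -1.65. For a retina preference of 4 to 6 the median was 0.43 without replicate 2 and 2.17 without replicate 3. The levelling towards retina thus depended on these samples too.

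**Figure D3:**
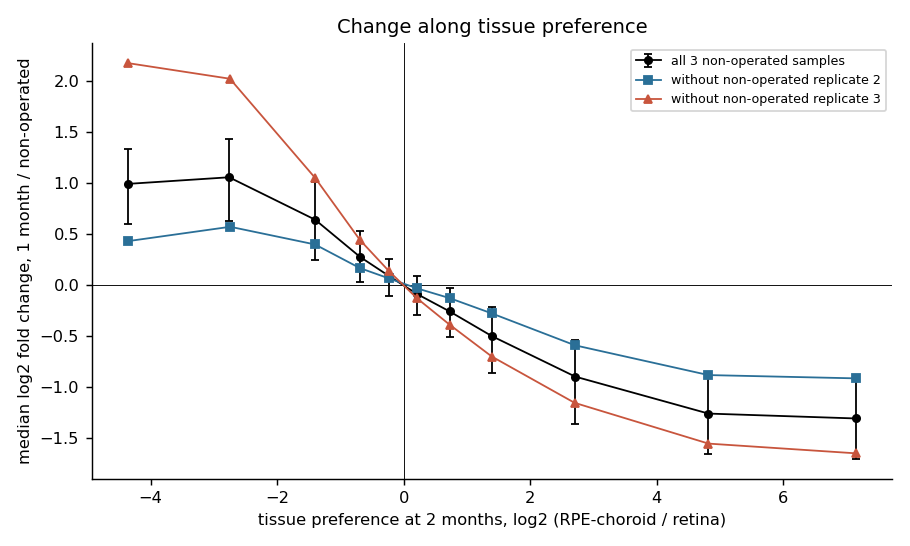
Median log2 fold change at 1 month (y axis) of genes binned by their tissue preference in the 2-month samples (x axis, log2 RPE-choroid over retina), with all 3 non-operated samples (black, bars give quartiles) and without non-operated replicate 2 or 3. Bins of fewer than 20 genes are not drawn. The medians run from 1.05 on the retina side to -1.31 on the RPE-choroid side with all samples.

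Leaving out a non-operated sample moved the class medians and kept their signs. Without non-operated replicate 2, the medians at baseline classes were 0.44 for retina-preferring, 0.03 for shared-expression and -0.48 for RPE-choroid-preferring genes. Without replicate 3 they were 1.57, 0.04 and -0.997. Of the calls made without replicate 3, which were 4.05% higher and 8.9% lower over all genes, 242 of 2682 retina-preferring genes rose (9.02%) and 0 fell (2 were lower without adjustment, at p under 0.05). Of 3653 RPE-choroid-preferring genes, 15 were higher (0.411%) and 1103 lower (30.2%). Of 10294 shared-expression genes, 417 were higher (4.05%, as over all genes) and 377 lower (3.66%).

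Pairs of single samples showed how much of this range lay within the non-operated group. Between non-operated replicates 3 and 2, retina-preferring genes differed by a median of 2.11 log2 units and RPE-choroid-preferring genes by -1.06, with classes from 2 months. Against non-operated replicate 2, the 1-month samples differed by 2.31, 2.44 and 1.95 in retina-preferring genes and by -1.20, -1.46 and -0.94 in RPE-choroid-preferring genes. Against non-operated replicate 3, they differed by 0.06, 0.27 and -0.30 in retina-preferring genes and by -0.14, -0.41 and 0.13 in RPE-choroid-preferring genes. The last difference in each set is that of 1-month replicate 3, whose retina level of 35.5% was below the 57.3% of the non-operated sample, and its signs were opposite to those of the class medians.

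The pair closest in retina level, on the scale of non-operated retina, was 1-month replicate 1 (58.4%) and non-operated replicate 3 (57.3%). Between them, 9.2% of all genes differed by more than 2-fold. Between 1-month replicates 1 and 3, which are of the same group, 12.4% did, and between 1-month replicates 1 and 2 2.92% did. Between non-operated replicates 3 and 2, 32.7% of genes differed by more than 2-fold. These pairs have no replicate check and are given as descriptions. Retina at 1 month itself stood at 81.1% to 91.4% on this scale. A 1-month and a non-operated sample of equal level may therefore differ in the amount of retina.

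**Figure D4:**
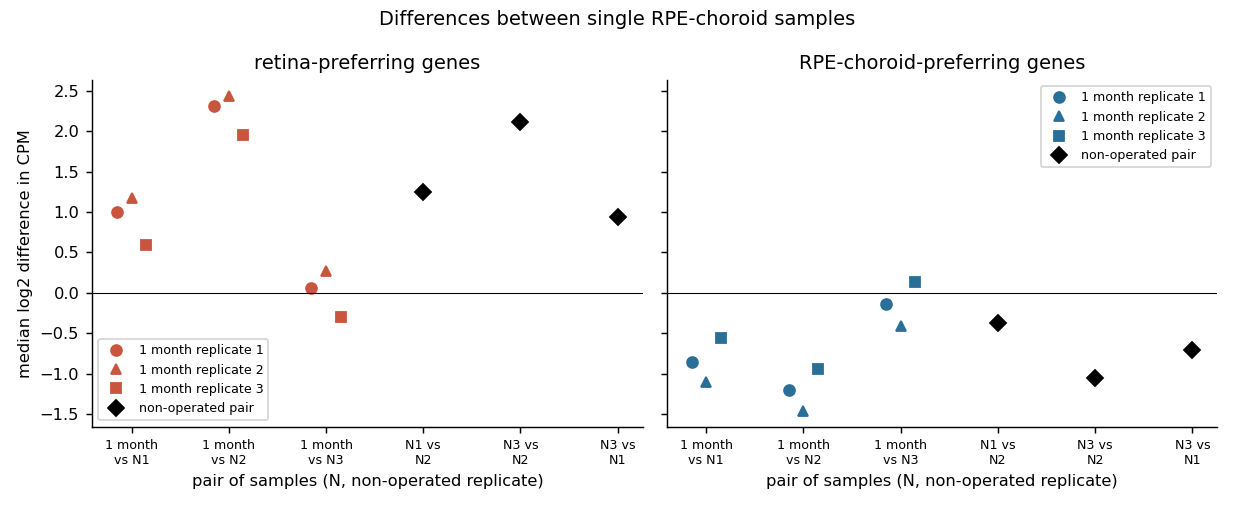
Median log2 difference in CPM (y axis) between single RPE-choroid samples (x axis) over retina-preferring genes (left) and RPE-choroid-preferring genes (right). Coloured symbols are the 1-month samples against each non-operated sample (N1 to N3), and black diamonds are pairs of non-operated samples. The 1-month samples differ from N3 by -0.30 to 0.27 in retina-preferring genes, while N3 differs from N2 by 2.11.

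The spread between replicates was also unequal across classes. The median SD of the log2 CPM of a gene over the 3 non-operated samples was 1.12 in retina-preferring, 0.62 in RPE-choroid-preferring and 0.24 in shared-expression genes. Over the 3 1-month samples it was 0.38, 0.40 and 0.20. In retina the values were 0.21, 0.29 and 0.16 for the non-operated samples. The SD was larger in non-operated than in 1-month RPE-choroid for 88.6% of retina-preferring genes, beside 65.2% of all genes.

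The retina level was next entered as a covariate, which with 3 samples a group overlaps in part with the group itself. With the retina level in percent as covariate, the median log2 fold change was 0.04 in retina-preferring, 0.03 in shared-expression and -0.17 in RPE-choroid-preferring genes, and 1 gene was called higher (0.00613%) and 0 lower (985 and 1312 at an unadjusted p under 0.05). With the mean log2 CPM of the retina-high genes as covariate, the medians were 0.31, 0.03 and -0.46, and 34 genes were called higher and 8 lower. With the mean of the RPE-choroid-high genes as covariate, the medians took the opposite signs, -0.62 and 0.22, beside 0.03 in shared-expression genes, and 0 genes were called (868 higher and 977 lower at an unadjusted p under 0.05). The retina-high genes exceeded RPE-choroid by at least 3.66 log2 units at 2 months, so all are retina-preferring by those classes. The RPE-choroid-high genes, with an excess of at least 5.37, are all RPE-choroid-preferring. Each covariate is thus made from genes of a class it is read on, so the shift of that median is partly built in. How far the amount of retina accounts for the change was not tested.

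Genes were then sought that lay outside both tissues, since a mixture of the 2 non-operated tissues has levels between theirs. Such a gene was above, or below, all 6 non-operated samples of RPE-choroid and retina in all 3 1-month samples. The retina that the 1-month samples carry is operated retina. Counting against non-operated RPE-choroid alone, the groups did not overlap in 1983 genes that were higher (12.1%) and 2190 that were lower (13.4%). Of the RPE-choroid-preferring genes by the 2-month classes, 30 were higher (0.865%) and 922 lower (26.6%). Of the retina-preferring genes, 766 were higher (26.4%) and 7 lower (0.241%). Among the shared-expression genes the counts were 1187 (11.9%) and 1261 (12.7%).

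Against both tissues, 682 genes were higher (4.18%) and 702 lower (4.3%). By the 2-month classes, 30 RPE-choroid-preferring genes were higher (0.865%) and 23 lower (0.663%). Of the retina-preferring genes, 184 were higher (6.35%) and 4 lower (0.138%). By the baseline classes, 55 RPE-choroid-preferring genes were higher (1.54%) and 2 lower (0.056%), and 80 retina-preferring genes were higher (3.05%) and 4 lower (0.152%). The share of higher retina-preferring genes was thus above that of all genes by 1 set of classes and below it by the other. These class counts depend on how the classes are defined, since a gene that prefers one tissue is at least 2-fold lower in the other and has to pass that level too. Leaving out any sample loosens this rule. With 1 RPE-choroid sample left out, 737 to 1038 genes of all classes were higher and 792 to 1067 lower. With all samples, 468 shared-expression genes were higher (4.7%) and 675 lower (6.78%) by the 2-month classes, and 547 (5.4%) and 696 (6.87%) by the baseline classes. The median log2 fold change was 0.90 in the genes that were higher, of which DESeq2 called 314, and -0.44 in those that were lower, of which it called 122. Over all its genes DESeq2 called 2.36% higher and 4.13% lower. The same RPE-choroid samples chose the genes outside both tissues, so their DESeq2 calls are descriptions. In operated against non-operated retina, 10.9% of all tested genes were called higher and 7.07% lower by edgeR. There the median log2 fold change was 0.91 in the 661 genes of the higher set, of which 353 were called higher. It was -0.49 in the 700 genes of the lower set, of which 270 were called lower. The same non-operated retina samples entered the choice of these genes, so these retina values are descriptions. In most of these genes the gap to the nearest non-operated sample was small, with a median of 0.19 log2 units for higher and 0.11 for lower genes.

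With a gap of more than 2-fold, 67 genes were higher (0.41%) and 1 was lower (0.00613%). The 67 genes were 42 retina-preferring (1.45% of the class), 23 shared-expression (0.231%) and 2 RPE-choroid-preferring genes (0.0577%) by the 2-month classes, and their log2 fold changes were 1.34 or more. Of these, 17 had fewer than 10 counts in every non-operated sample of both tissues (1 had 0 counts in each) and so passed the count filter mainly through operated samples. The other 50 had 10 or more in at least 1 of them, which may be a retina sample. The filter saw RPE-choroid samples only, so some of the 50 may also have passed through operated samples, which was not counted. The counts of higher and lower genes are not comparable for this reason. In 40 of the 67, every 1-month RPE-choroid sample had at least 100 counts. In 21 of the 67, all 3 RPE-choroid samples at 2 months were also above every non-operated sample of both tissues. The same non-operated samples chose the 67 genes and set this limit, so the overlap is partly built in. The share of all genes above this limit at 2 months was not counted. The gene that was lower had a log2 fold change of -2.46. This search and its margin were chosen after the data were seen.

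The changed genes were also read in the retina samples of the same groups, which the RPE-choroid comparison does not use. In retina at 1 month, 1731 genes rose (10.9%) and 1123 fell (7.07%) out of 15878. By the 2-month classes, which gave 812 higher and 787 lower shared-expression genes at an unadjusted p under 0.05 in RPE-choroid, the retina readings were as follows. Of the shared-expression genes that were higher in RPE-choroid at an unadjusted p under 0.05, 807 were tested in retina, and 232 (28.7%) rose there at an adjusted p under 0.05 by edgeR, while 0 fell. Of all shared-expression genes tested in both tissues, 6.93% rose and 7.22% fell in retina. Of the 785 shared-expression genes that were lower in RPE-choroid, 191 (24.3%) fell in retina and 8 rose. Of the 442 retina-preferring genes that were higher in RPE-choroid, 150 (33.9%) rose in retina and 0 fell, beside 7.53% and 11.4% of their whole class. Of the 1142 RPE-choroid-preferring genes that were lower in RPE-choroid and tested in retina, 225 (19.7%) rose in retina and 54 (4.73%) fell, beside 29.4% and 2.40% of their whole class. The 1-month RPE-choroid samples themselves carried retina transcripts at 35.5% to 69.6% of the retina level, so the 2 readings hold some of the same tissue, and the part of this in the counts was not tested.

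The difference between the tissues was tested directly as an interaction in all 18 samples. The 1-month change was more negative in RPE-choroid than in retina in 914 of 16846 genes (5.43%) and more positive in 3 (0.0178%), at an adjusted p under 0.05 by edgeR. This fit estimated the spread over both tissues together, while the non-operated SDs given above were larger in RPE-choroid than in retina. For the RPE-choroid change alone, fitting all 18 samples gave 526 and 947 calls, beside 2 and 0 with the 9 RPE-choroid samples. The part of this in the interaction counts was not tested. Of the 914 genes, 894 were RPE-choroid-preferring at baseline, which is 25% of the 3575 tested in that class. Shared-expression genes made up 17 and retina-preferring genes 3. The median difference between the changes in the 2 tissues was -1.54 log2 units in RPE-choroid-preferring, 0.02 in shared-expression and 1.01 in retina-preferring genes. With same-numbered retina and RPE-choroid samples of the same condition as a block, the counts were 540 and 1. Of these, 532 were RPE-choroid-preferring and more negative. The labels do not state such a pairing. In RPE-choroid-preferring genes at baseline, the median log2 fold change at 1 month was -0.75 in RPE-choroid and 0.67 in retina, where 83.6% of 2861 were higher. The baseline classes share non-operated samples of both tissues with this test and with both changes. By the 2-month classes, which share none with either change but come from operated eyes, the medians were -0.77 and 0.48, and 77.1% of 2749 were higher in retina. Without non-operated RPE-choroid replicate 3 the counts were 2361 and 953. They were 458 and 1 without non-operated replicate 2, 522 and 1 without non-operated replicate 1, 517 and 1 without 1-month replicate 1, 405 and 2 without 1-month replicate 2, and 1112 and 6 without 1-month replicate 3.

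The 2 genes that rose were in the shared-expression class at baseline. ENSOCUG00000024399 had 137, 159 and 154 CPM in the 1-month RPE-choroid samples and 55.2, 66.5 and 57.8 CPM in the non-operated ones. Every 1-month sample was above every non-operated sample. The log2 fold change was 1.34 ± 0.13 (SE, adjusted p = 0.0488, edgeR, higher in 3 of 3 samples). Over alternatives it ranged from 1.30 to 1.44, with adjusted p from 1.2e-14 (DESeq2) to 0.299, and it was past the threshold in 9 of 18 settings. In retina the same gene had 45.4 to 67.0 CPM in non-operated samples and 129 to 178 CPM at 1 month, a log2 fold change of 1.49 ± 0.21 (SE, adjusted p = 0.00216, edgeR). The changes in the 2 tissues differed by -0.20 ± 0.28 (SE, adjusted p = 0.699 by the edgeR interaction). At 2 months its level in RPE-choroid was 112 ± 14.2 CPM (SD, n = 3), with a log2 fold change of 0.92 (adjusted p = 0.256, edgeR).

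ENSOCUG00000017543 had 52.4, 59.0 and 52.2 CPM at 1 month and 20.9, 17.6 and 20.6 CPM in non-operated RPE-choroid. These groups did not overlap either. The log2 fold change was 1.49 ± 0.15 (SE, adjusted p = 0.0488, edgeR), and from 1.26 to 1.57 over alternatives, with adjusted p from 1.77e-14 (DESeq2) to 0.299 and 9 of 18 settings past the threshold. With the retina level as covariate it was 1.35 ± 0.15 (SE, adjusted p = 0.0717, edgeR). In retina the gene went from 25.9 ± 1.15 to 64.0 ± 9.68 CPM (SD, n = 3 each), a log2 fold change of 1.33 (adjusted p = 0.000709, edgeR). At 2 months its RPE-choroid level was 24.0 ± 3.77 CPM (SD, n = 3) while the retina level was 61.0 ± 10.2 CPM (SD, n = 3), and by those samples it was classed as retina-preferring.

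The 2 lower genes described were those with the smallest p among shared-expression genes whose groups did not overlap and whose log2 CPM averaged 1 or more, and neither passed the test. ENSOCUG00000015354 had 83.7, 84.9 and 80.8 CPM at 1 month and 140, 157 and 131 CPM in non-operated RPE-choroid, a log2 fold change of -0.76 ± 0.11 (SE, adjusted p = 0.0924, edgeR). The 1-month samples were close to each other. Over alternatives the log2 fold change ranged from -0.82 to -0.65 and the adjusted p from 1.64e-07 (DESeq2) to 0.348, with 3 of 18 settings past the threshold and 0.00657 without non-operated replicate 3. In retina it fell from 128 ± 12.7 to 81.7 ± 7.31 CPM (SD, n = 3 each, log2 fold change -0.62, adjusted p = 0.0144, edgeR).

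ENSOCUG00000017272 had 71.3, 52.0 and 63.2 CPM at 1 month and 153, 179 and 119 CPM in non-operated RPE-choroid, a log2 fold change of -1.26 ± 0.19 (SE, adjusted p = 0.0924, edgeR). Its highest non-operated level was in replicate 2 and its lowest in replicate 3. Over alternatives the log2 fold change ranged from -1.41 to -0.76 and the adjusted p from 6.68e-06 (DESeq2) to 0.348, with 4 of 18 settings past the threshold, among them the retina-high score as covariate (0.0487). By the 2-month samples the gene was classed as RPE-choroid-preferring. Its retina level fell from 108 ± 6.34 to 35.8 ± 14.2 CPM (SD, n = 3 each, log2 fold change -1.57, adjusted p = 0.0269, edgeR). The 1-month RPE-choroid level of 62.2 ± 9.67 CPM (SD, n = 3) was below every non-operated sample of both tissues. At 2 months it stood at 114 ± 7.50 CPM in RPE-choroid and 47.7 ± 23.8 CPM in retina (SD, n = 3 each).

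**Figure D5:**
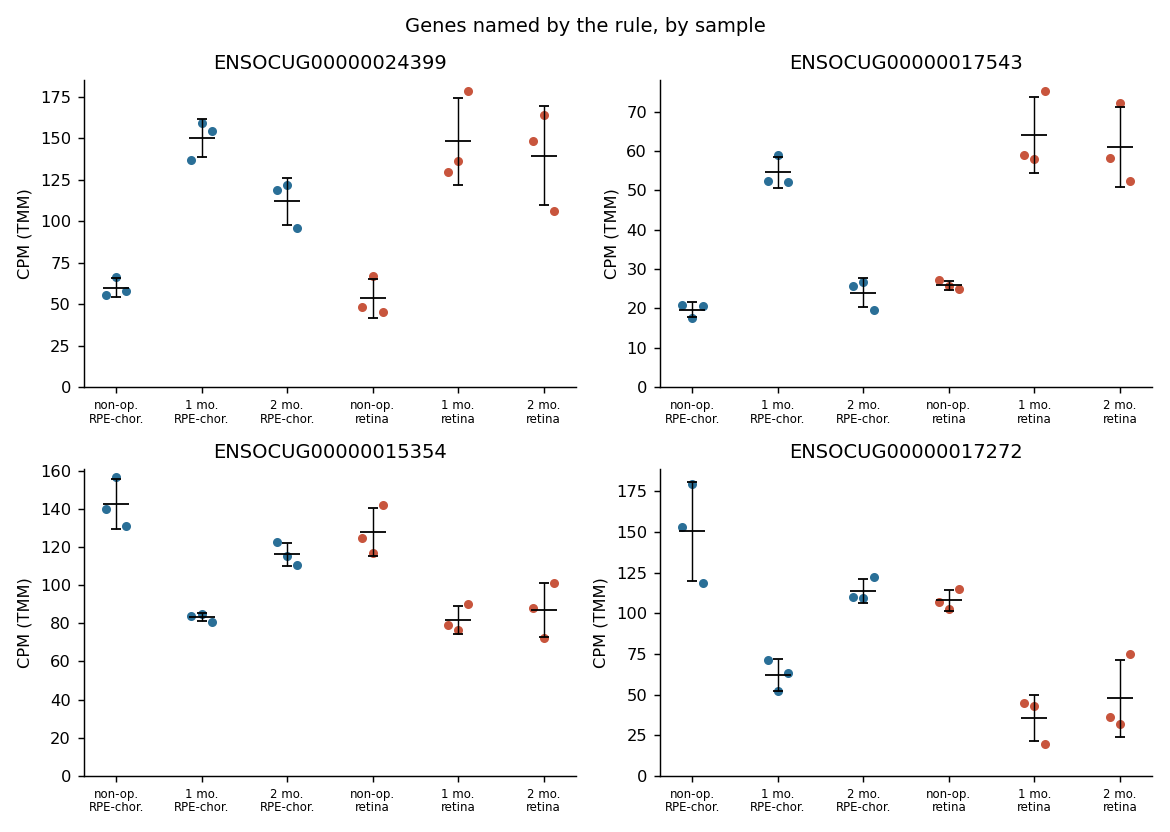
CPM of 4 genes (y axis, from 0) in each sample of non-operated, 1-month and 2-month RPE-choroid (blue) and retina (red), with the mean and SD of 3 samples in black. In the upper genes the 1-month RPE-choroid samples sit above, and in the lower genes below, all non-operated samples of both tissues.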

How the data were processed

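Poly-A RNA of RPE-choroid and retina from non-operated eyes and from eyes 1 and 2 months after vitrectomy and poly(CEP) filling was sequenced (directional libraries, 3 biological replicates each, 18 samples). Reads were trimmed (Trim Galore), mapped to OryCun2.0 (HISAT2) and counted per gene (HTSeq) by the authors, and the deposited table holds unnormalised counts for 29587 genes. The 5 HTSeq summary rows, 8.03% to 9.62% of reads for multiple alignment and 20.8% to 25.2% for no feature in the 6 samples compared, were left out of library sizes. Counts on genes were 26759641 to 33505730 in these samples, so replicate spread sets the precision of well-counted genes, while counting error also bears on genes with few counts.

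The 9 RPE-choroid samples were fitted together with edgeR 4.0.16 in R 4.3.3 (TMM, filterByExpr with a minimum count of 10 and total of 15, robust quasi-likelihood, two-sided, Benjamini-Hochberg adjusted p under 0.05), and the tissue interaction in all 18. The standard error is the log2 fold change divided by the root of F. DESeq2 1.42.0 was an alternative. Score tests were exact permutations in SciPy 1.17.1. Classes compare mean log2 CPM (TMM over all samples, prior count 2) between tissues, and score genes averaged at least 5 on that scale in the tissue where they are high. The scripts were tested on simulated counts.

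Without gene names, the genes named are the 2 with the smallest p among higher genes, and the 2 with the smallest p among lower shared-expression genes with no overlap and a log2 CPM averaging 1 or more. Genes shared by near-identical copies could not be identified. The comparison, classes and lists were chosen with earlier results of these data known. The retina level as covariate and the genes outside both tissues were added after the data were seen. Planned lists of NRF2 target genes and cell type markers were not run, since 0 identifiers matched a name. In the labels, the groups share replicate numbers. Deviations of same-numbered retina and RPE-choroid samples correlated at 0.39, 0.39 and 0.50 at 1 month and 0.38, 0.17 and 0.16 in non-operated eyes. Correlations of different-numbered samples across the tissues are not given, so pairing of the tissues by number is not shown here. The labels do not state a pairing. The column of non-operated RPE-choroid replicate 2 was matched by title, since that sample's description carries an extra suffix. Of the 6 pairs of same-group samples compared here, none agreed within sampling noise (lowest chi-square per degree of freedom 25.1).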

Additional observations from a re-analysis of the deposited data

Results flagged for a closer look

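The difference between tissues was marked for a closer look because the interaction itself was tested. The 1-month change was more negative in RPE-choroid than in retina in 914 genes and more positive in 3 (adjusted p under 0.05, edgeR). The spread was estimated over both tissues together, though it was larger in non-operated RPE-choroid than in non-operated retina, and the part of this in the counts was not tested. With same-numbered samples of both tissues and the same condition as a block, the interaction counts were 540 and 1. With 1 sample left out they were 405 to 2361 and 1 to 953. The median log2 change of RPE-choroid-preferring genes was -0.75 in RPE-choroid and 0.67 in retina by the baseline classes, and -0.77 and 0.48 by the 2-month classes. These genes were tested with RPE-choroid samples whose retina level ran from 0.492% to 69.6%, and its part in the counts was not tested. With 3 samples a group, no sample was tested as an outlier within its group.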

How the results depend on the processing

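Each sample compared had at least 26759641 counts on genes, and the limits of these values are 3 samples a group and a non-operated group with retina levels from 0.492% to 57.3%. The signs of the medians of retina-preferring and RPE-choroid-preferring genes held in the settings run except with the RPE-choroid-high score as covariate. The median of shared-expression genes, near 0, was -0.00326 by the 2-month classes without 1-month replicate 3. The cause of the differences was not tested.

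For genes called higher (2) and lower (0), the alternatives gave 547 and 956 with DESeq2, 526 and 947 with all 18 samples, 34 and 8 with the retina-high score as covariate, 1 and 0 with the retina share, 0 and 0 with the RPE-choroid-high score, 0 and 0 with only the 6 samples compared, 7 and 0 with upper-quartile normalisation, 5 and 0 without a low-count filter, and 8 and 0 where each sample had 10 counts or more. RLE gave 2 and 0. With 1 sample left out they ranged from 0 to 674 and from 0 to 1480. With the replicate number as a block they were 0 and 0. For this contrast equal numbers do not pair the samples (correlations of 0.06, -0.37 and -0.27, not every sample correlating best with its own number).

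Class medians at baseline were 0.31, 0.03 and -0.46 with the retina-high score, 0.0443, 0.03 and -0.17 with the retina share and -0.62, 0.03 and 0.22 with the RPE-choroid-high score. Their shares of higher genes were 71.7% and 20.8%, 53.1% and 37.4%, and 21.3% and 64.4% in retina-preferring and RPE-choroid-preferring genes. Shared-expression genes had a median of 0.0899 and 60.3% higher under upper-quartile normalisation and 55.2% higher with 10 counts or more in each sample. With 1 sample left out, medians ranged from 0.44 to 1.57, from 0.01 to 0.04 and from -0.997 to -0.48, and shares from 76.4% to 96.98%, from 50.6% to 54.9% and from 8.49% to 20.3%.

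The interaction counts, 914 and 3, were 540 and 1 with the block of same-numbered samples of both tissues. They were 1529 and 34 with DESeq2, 743 and 1 without a filter, and 405 to 2361 and 1 to 953 with 1 sample left out. Genes outside both tissues were 67 and 1 with a 2-fold margin, and 737 to 1038 and 792 to 1067 with 1 sample left out, which loosens the rule. Score differences with 1 sample left out were 0.38 to 3.72 and -1.71 to -0.97.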
